A study of Mus musculus with 5 samples.

Results

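Claudins and the genes of the desmosome were taken by symbol from the gene list of 5 single-cell RNA-seq libraries of the mouse: every Cldn symbol that ends in a plain number (symbols such as Cldn34a do not), the desmogleins (Dsg), desmocollins (Dsc) and plakophilins (Pkp), and desmoplakin (Dsp), plakoglobin (Jup), Perp and occludin (Ocln). The rule found 40 genes among the 32285 listed, 23 of them claudins, and 9 symbols that start with Cldn34 are not among them. All 40 had at least 1 UMI (unique molecular identifier, 1 captured RNA molecule) in the cells kept, and 9 had fewer than 100.

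The study is about the baculum, the bone of the mouse penis, and set the penis beside limbs at the start of bone formation. Its libraries also hold the skin, lining and vessels of these organs. The labels give the strain as C57BL/6N, whereas the methods of the study give C57BL/6J for its mice, and neither names another genotype or a treatment for these samples. The penis group was 3 libraries of postnatal day 6 males, for which the methods name 3 mice from 2 litters and a glans freed of its prepuce. The limb group was 1 forelimb and 1 hindlimb library of male embryos at embryonic day 15, dissected from 6 embryos. The labels do not tie a library to a mouse, a litter or an embryo, so p-values measure the spread between these libraries. Organ and age therefore cannot be told apart in any penis against limb comparison, and the spread within the limb group includes the difference between forelimb and hindlimb.

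Claudins are membrane proteins that form the strands of the tight junction and set which ions and solutes pass between cells, with occludin in the same strands. Desmosomes rivet neighbouring cells together: desmogleins and desmocollins are the cadherins that reach across the gap, plakoglobin and the plakophilins bind their tails, and desmoplakin ties the plaque to keratin filaments. In skin, desmosomes hold every living layer together, and claudins seal the outer living layers against water loss, while in blood vessels Cldn5 is the main claudin.

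The penis libraries kept 5708 to 7085 cells each and the limb libraries 20514 and 22057, at medians of 8792 to 9909 UMIs per penis cell and of 5358 and 6057 per limb cell. Cells were sorted into 4 gates by marker genes, none of which is a claudin or desmosome gene. Basal epithelial cells numbered 271, 330 and 209 in the penis libraries and 109 and 93 in forelimb and hindlimb. Suprabasal epithelial cells numbered 77, 95, 55, 101 and 153 in the same order, and endothelial cells 497, 526, 420, 434 and 363. All remaining cells form the gate called other, which is mesenchyme for the most part, and 7 cells that reached both the epithelial and the endothelial gate were left out. Summed over the 8 epithelial markers, basal cells held 6017 to 11748 UMIs per 1000000 UMIs (CPM) and other cells 34.7 to 54.6, and the 8 endothelial markers summed to 3685 to 4753 CPM in endothelial and to 94.1 to 151 in other cells. These markers set the gates, so their sums are a description. Glial markers summed to 245 CPM in the basal cells of penis library 3 and to 28.6 to 45.4 CPM in those of the other libraries. Pairs of libraries shared 20 to 203 cell barcodes. Basal and suprabasal cells near the line between the layers, within 0.05 of the marker ratio that divides them, made up 46 of 348, 78 of 425 and 38 of 264 epithelial cells of penis 1, 2 and 3, 14 of 210 for forelimb and 17 of 246 for hindlimb. CPM counts UMIs of captured 3' ends and was not scaled by length. Whether intron reads add to it in long genes is not known here.

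Of the 40 genes, 21 had their highest mean level in suprabasal cells, 4 in basal cells, 4 in endothelial cells and 11 in other cells, and the 11 were all claudins. At least 10 CPM was reached by 19 genes in suprabasal cells, 13 in basal cells, 4 in endothelial cells and 3 in other cells. Among the gates, Cldn16, Cldn20 and Cldn24 had UMIs in other cells only, with totals of 13, 135 and 11 UMIs, and Cldn17 had a single UMI, in a suprabasal cell of the penis. The map of all members by gate shows Dsp, Perp, Jup, Pkp1, Pkp4 and Dsc3 bright across both epithelial layers, and Cldn5 bright in endothelial cells.

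**Figure D1:**
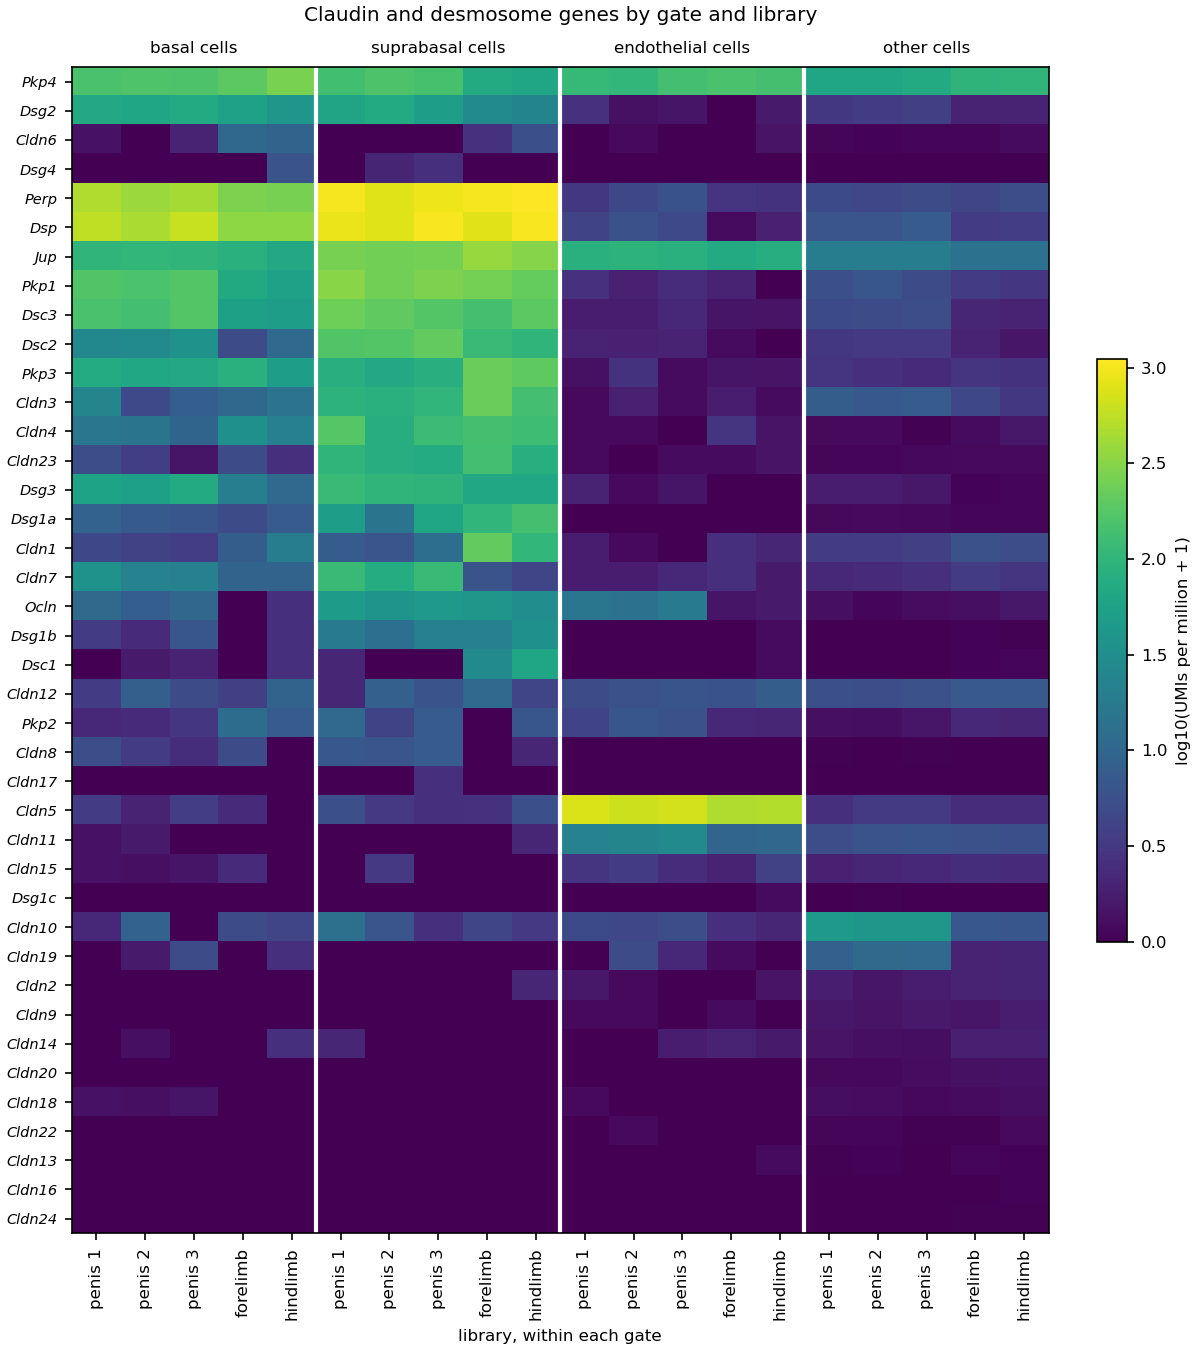
Level of each of the 40 genes (rows, grouped by the gate with the highest mean) in each library (columns) within each gate, as log10 of CPM plus 1. Perp and Dsp reach about 1000 CPM in suprabasal cells, Cldn5 reaches 477 to 739 CPM in endothelial cells, and most claudins led by other cells stay near 0.

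Basal cells were dominated by desmosome genes. Dsp, the plaque protein that anchors keratin, had 562, 462 and 610 CPM in the penis libraries and 333 and 341 in forelimb and hindlimb. Perp, a desmosome-associated membrane protein needed for stable adhesion in stratified epithelia, had 480.1, 389 and 435 CPM against 278 and 264. Pkp4, a plakophilin relative found at several junctions, had 147, 159 and 157 CPM in the penis and 189 and 274 in the limbs, and Jup had 98.6, 103 and 98.4 against 83.9 and 68.5. In all 4 the penis and limb libraries did not overlap, with Pkp4 alone higher in the limbs. The share of all genes whose groups do not overlap is not given here, so overlap is a description throughout. Dsg2 had 67.5, 60.5 and 71.0 CPM against 55.0 and 40.1, and Pkp3 had 74.7, 64.5 and 67.5 against 85.3 and 48.5, the one gene of the 8 highest whose groups overlapped. The strongest claudins of basal cells lay below each of these 6 genes in every library. Cldn7 had 35.9, 21.2 and 20.3 CPM against 8.26 and 8.36, and Cldn4 had 14.8, 13.8 and 8.62 against 33.0 and 20.1.

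Against other cells of the same library, 16 of the 26 members tested were higher in basal cells and 2 were lower, where higher or lower means a log2 fold change beyond 1 whose adjusted p is under 0.01. Across all 17655 genes tested, 6.93% were higher and 15.8% lower. The median log2 difference was 3.16 over the members and -0.15 over all genes. Among the 18 called, Dsp differed most, by 6.92 ± 0.14 (SE) on the log2 scale (adjusted p = 2.85e-08), followed by Dsg3, a basal desmoglein, at 6.79 ± 0.27. The 16 held 12 of the desmosome group besides 3 claudins, Cldn4 at 6.43 ± 0.40, Cldn23 at 4.30 ± 0.55 and Cldn7 at 3.70 ± 0.48, and Ocln at 4.54 ± 0.69. Cldn4 and Cldn23 averaged 0.25 and 0.16 CPM in other cells and passed the count filter for testing through the basal libraries. The pair that was lower in basal cells was Cldn10, by -3.11 ± 0.62, and Cldn11, by -3.64 ± 0.58. Cldn10 missed the threshold without penis library 1 (adjusted p = 0.022) and without penis library 3 (adjusted p = 0.011). With the stricter gate on distinct markers 9 of 21 members tested were called, and Cldn7 stood at -0.051 on the log2 scale (adjusted p = 0.983). The share of all genes called with that gate is not given here. Of 7 barrier transcription factors, 6 were higher, among them Grhl2 at 6.14 ± 0.14, and Klf4 was lower, by -1.55 ± 0.12. Higher too were 7 of 16 tight junction partners, among them F11r, a junctional adhesion molecule, at 4.63 ± 0.14, while 4 of the 16 were lower. Hemidesmosome genes, which fix basal cells to the basement membrane, were higher in 6 of 8, desmosome and cornified envelope partners in 4 of 5, and adherens junction genes in 4 of 12 with 2 lower.

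Between the basal and the suprabasal gate of the same library, 13 of 17 members tested were higher in the suprabasal gate, here called a rise, and none fell. Across 8761 genes, 4.70% were higher and 2.31% lower in suprabasal cells. Members had a median log2 difference of 1.76 and all genes of -0.03. All 4 claudins tested were among the 13. In the suprabasal cells led by Krt1, Krt10 and Lor, read apart below, the 23 claudins summed to 46.4, 56.4 and 49.9 CPM in the penis. Limb cells of that set held 137 and 176 CPM. Basal cells held 94.3, 65.5 and 53.3 CPM of claudins in the penis and 85.3 and 85.2 in the limbs. The suprabasal markers, which set the layers, summed to 807 to 883 CPM in penis basal and to 5483 to 6906 in penis suprabasal cells, and in the limbs went from 235 to 12554 and from 241 to 17624. The basal markers went from 10209 to 8056, from 8903 to 7938 and from 8938 to 9957 CPM in the penis and from 6104 to 8810 and from 5283 to 5724 in the limbs, and the 8 epithelial markers from 11748 to 10314, from 10239 to 9865 and from 10005 to 12214 and from 6883 to 12877 and from 6017 to 8816. Basal markers were thus higher in the suprabasal than in the basal gate of penis library 3 and of both limbs. The name of the suprabasal gate rests on its share of suprabasal markers. The part of these marker sums in the members' values was not tested. The mean level of Cldn23 in penis suprabasal cells was 83.6 ± 12.8 CPM (SD, n = 3), and its largest value in any basal library was 4.39 CPM.

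Cldn23, a claudin of differentiating epithelium, had 4.39, 2.69 and 0.51 CPM in penis basal cells and 98.1, 78.9 and 73.9 in penis suprabasal cells. In the limbs it went from 4.13 to 136 CPM in the forelimb and from 1.67 to 80.6 in the hindlimb. The difference of 5.11 ± 0.27 on the log2 scale was the largest among the members (adjusted p = 7.03e-06). Basal cells of penis 1, 2, 3, forelimb and hindlimb held 11, 8, 1, 3 and 1 UMIs of Cldn23. It passed the count filter for testing through the suprabasal libraries. Cldn3, a sealing claudin, stood at 23.6, 3.70, 7.10, 9.63 and 13.4 CPM in basal and at 93.6, 84.3, 101, 227 and 137 CPM in suprabasal cells of penis 1, 2, 3, forelimb and hindlimb. Cldn4, its neighbour on chromosome 5, stood at 175, 77.8, 122.6, 138 and 126 CPM in suprabasal cells. Both were higher in the whole suprabasal gate of all 5 libraries, by 3.55 ± 0.35 for Cldn3 (adjusted p = 0.00019) and 3.06 ± 0.24 for Cldn4 (adjusted p = 5.16e-05). In the part of it led by Krt1, Krt10 and Lor, read apart below, Cldn3 had 0, 1.52, 2.37, 0 and 15.6 CPM. There Cldn23 had 0, 1.52, 2.37, 0 and 17.0 CPM, and Cldn4 had 10.8, 12.2, 9.50, 56.1 and 56.7, in the same order of libraries.

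Cldn7, a claudin of the lateral membrane, split by organ. It went from 35.9 to 114, from 21.2 to 76.7 and from 20.3 to 114 CPM in the penis libraries, and from 8.26 to 5.05 and from 8.36 to 3.36 CPM in the limbs. In the suprabasal cells led by Krt1, Krt10 and Lor alone, Cldn7 had 4.64, 16.8 and 7.12 CPM in the penis. These penis values lie below those of basal cells, and the limbs had 0 and 1.42 CPM. Its mean difference over all libraries was 1.77 ± 0.34 (adjusted p = 0.0063), which missed the threshold without any 1 of the penis libraries (adjusted p from 0.032 to 0.052) and without the library block (adjusted p = 0.148). The difference between organs in this layer step was 2.82 ± 0.72 with an adjusted p of 0.032, above the threshold. Ocln rose by 2.67 ± 0.36, from 10.4, 7.06 and 9.13 CPM to 46.2, 36.8 and 42.0 in the penis and from 0 and 1.67 to 40.4 and 30.2 in the limbs. The count of 0 in 109 forelimb basal cells allows a level of up to 4.13 CPM. Ocln passed the count filter for testing between layers through the suprabasal libraries.

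Among the desmosomal cadherins, Dsg1a and Dsg1b, desmogleins of the upper layers, rose by 3.14 ± 0.40 and 2.99 ± 0.42, and Dsc2 by 2.95 ± 0.23. In suprabasal cells Dsc2 had 166, 172 and 205 CPM in the penis and 115 and 97.4 in the limbs. Dsg1a had 48.5, 14.1 and 60.4 CPM against 101 and 139, and Dsg1b had 16.9, 11.9 and 20.1 against 20.2 and 32.5. In basal cells of penis 1, 2, 3, forelimb and hindlimb Dsg1a had 20, 19, 11, 3 and 4 UMIs. Dsg1b had 6, 4, 11, 0 and 1 there. Both genes passed the count filter for testing between layers through the suprabasal libraries. Dsg1a, Dsg1b and Dsg1c are near-identical copies, so reads may be split among them. Dsg3 rose by 1.23 ± 0.25, but missed the threshold without any 1 of the penis libraries or without the forelimb (adjusted p from 0.014 to 0.025) and without the library block (adjusted p = 0.0951). Dsc3 and Dsg2 did not pass, at 0.96 ± 0.25 (adjusted p = 0.026) and -0.26 ± 0.19 (adjusted p = 0.36). Of the plaque genes and Perp, Jup rose by 1.76 ± 0.18, Perp by 1.55 ± 0.19, Pkp1 by 1.30 ± 0.22 and Dsp by 1.15 ± 0.16, of which Pkp1 missed the threshold without the library block (adjusted p = 0.0215). Jup had 260.5, 249.7 and 254 CPM in penis and 374 and 307 in limb suprabasal cells. Pkp1 had 317, 251 and 275 CPM against 258 and 214, and Dsp had 898, 789 and 1033 against 817 and 1052, and in both the organs overlapped. Perp reached 1009, 799.9 and 937 CPM in penis suprabasal cells and 1020.45 and 1114 in limb suprabasal cells. Pkp3 differed by 0.87 ± 0.29 and Pkp4 by -0.57 ± 0.27, neither past the threshold. The plot of both layers by library shows these steps side by side.

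**Figure D2:**
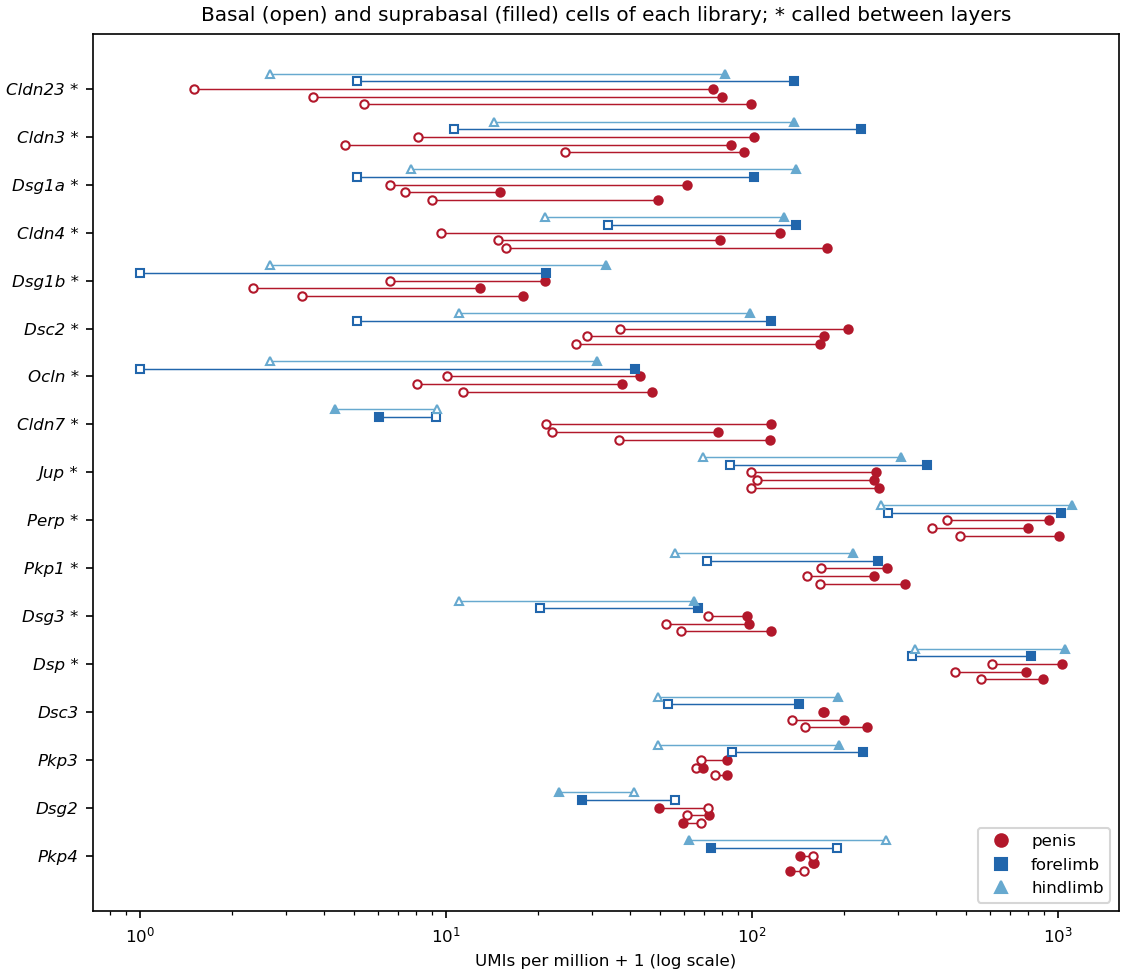
CPM plus 1 (log scale) of the 17 members tested between layers, in basal (open) and suprabasal (filled) cells, joined within each library. Cldn23 lies at 73.9 to 136 CPM in every suprabasal library and at 4.39 CPM or less in every basal one, while Cldn7 rises in the 3 penis libraries and lies lower in the suprabasal cells of both limb libraries.

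The lists around the junctions gave the following counts in the same comparison. All 5 desmosome and cornified envelope partners tested rose, led in level by Ppl (periplakin) at 3.08 ± 0.51, with Spink5, a protease inhibitor of the outer skin, at 4.62 ± 0.21. Tight junction partners rose in 5 of 11, among them the scaffold Tjp1 at 1.57 ± 0.19, and adherens junction genes in 2 of 11, with Cdh1 (E-cadherin) at 1.55 ± 0.13. Barrier transcription factors rose in 3 of 7, with Grhl1 at 2.93 ± 0.29 and Ovol1 at 2.05 ± 0.28. Hemidesmosome genes fell in 4 of 8, with Dst at -1.44 ± 0.17 and Lama3 at -1.36 ± 0.15.

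Cldn3 and Cldn4 lie on opposite strands of chromosome 5, at 134986214 to 134987472 and at 134945119 to 134946934 (GENCODE on GRCm38). Their promoters are shown because both genes rose together from basal cells to the whole suprabasal gate, and that of Cldn5 because its level set endothelial cells apart. Each is the 250 bases before the start of the gene as RefSeq gives it (GRCm38.p6), with capitals on every motif found. Motifs were searched on both strands, the GC box as GGGCGG, the AP-1 site of stress and growth factors as TGANTCA, the half-site of Grhl barrier factors as CCGGTT, the site of the ETS factor family as CCGGAA and the TATA box of promoters as TATAAA.
Cldn3 (chr5:134985964-134986213, + strand): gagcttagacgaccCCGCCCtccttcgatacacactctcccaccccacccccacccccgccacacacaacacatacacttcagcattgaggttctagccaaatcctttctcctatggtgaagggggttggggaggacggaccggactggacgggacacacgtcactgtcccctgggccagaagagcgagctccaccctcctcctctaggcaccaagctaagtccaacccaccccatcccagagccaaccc
Cldn4 (chr5:134946935-134947184, - strand): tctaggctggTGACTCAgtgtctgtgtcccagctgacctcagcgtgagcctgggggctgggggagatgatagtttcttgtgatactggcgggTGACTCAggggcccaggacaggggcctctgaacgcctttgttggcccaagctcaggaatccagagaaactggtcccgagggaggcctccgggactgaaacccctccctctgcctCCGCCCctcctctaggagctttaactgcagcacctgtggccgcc
Cldn5 (chr16:18776597-18776846, + strand): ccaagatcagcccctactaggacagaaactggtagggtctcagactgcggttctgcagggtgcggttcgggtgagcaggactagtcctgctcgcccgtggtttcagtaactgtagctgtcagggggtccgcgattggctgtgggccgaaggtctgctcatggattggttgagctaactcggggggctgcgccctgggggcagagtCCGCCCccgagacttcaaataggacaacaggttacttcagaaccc
All 3 windows held 1 GC box, and 32.7% of the 32851 RefSeq windows of this length held at least 1. The Cldn4 window also held 2 AP-1 motifs, a motif found in 6.75% of all windows. None of the 3 held the Grhl half-site, the ETS site or the TATA box, which 5.62%, 12.0% and 12.4% of all windows hold. RefSeq windows were at hand for 23 of the 40 members, and 2 of these 23 had an AP-1 motif and 14 a GC box. These are matches of letters, not measured binding.

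Between basal cells of the penis and the limbs, 3 desmosomal cadherins, Pkp1 and Cldn6 passed the test. Of 19 members tested, 4 were higher in the penis and 1 was lower, where 4.50% of 11546 genes were higher and 3.46% lower. The median log2 difference was 0.51 over the members and 0.02 over all genes. Dsc2 had 25.6, 27.9 and 36.0 CPM in the penis and 4.13 and 10.03 in the limbs, 2.23 ± 0.39 on the log2 scale (adjusted p = 0.00087). The limb values of Dsc2 are 3 and 6 UMIs, and it passed the count filter for testing through the penis libraries. Dsg3 had 57.9, 51.4 and 71.0 CPM against 19.3 and 10.03, and differed by 2.11 ± 0.29 (adjusted p = 0.0001). Dsc3, the desmocollin of basal layers, had 148, 135 and 171 CPM against 52.3 and 48.5, and differed by 1.70 ± 0.18 (adjusted p = 7.21e-06). Pkp1, a plakophilin of stratified epithelium, had 167, 150.2 and 167 CPM against 70.2 and 55.2, and differed by 1.48 ± 0.17 (adjusted p = 1.95e-05). In these 4 genes every penis library lay above both limb libraries. Summed over the 9 desmogleins and desmocollins, penis basal cells held 283 to 362 CPM and limb basal cells 124 and 135.

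Cldn6, a claudin of embryonic epithelia, was the member lower in penis basal cells, with 1, 0 and 2 UMIs in the penis libraries and 7 and 5 in the limbs. Its level was 22.5 times as high in the limbs, with a 95% counting interval from 6.07 to 124. With so few penis UMIs, Cldn6 passed the count filter for testing through the limb libraries. Cldn6 lies beside Cldn9 on the opposite strand of chromosome 17, and Cldn9 had no UMI in basal cells. Ocln, with 26, 21 and 18 UMIs against 0 and 1, and Cldn7 had adjusted p-values of 0.012 and 0.011, just above the threshold. Dsp and Perp differed by 0.81 ± 0.14 and 0.81 ± 0.14, past the p limit (adjusted p = 0.00077 and 0.00087) but not the fold limit, and with the stricter gate they stood at -0.21 and -0.076.

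The 9 suprabasal markers, which took part in setting the gates, summed to 883, 822 and 807 CPM in penis basal cells and to 235 and 241 in limb ones, and the 5 basal markers to 8903 to 10209 and to 6104 and 5283. Dsc2, Dsg3 and Pkp1 also rose from basal to suprabasal cells. With a tighter gate the suprabasal markers summed to 501, 537 and 487 CPM against 192 and 175, and Dsc2, Dsg3, Dsc3 and Pkp1 differed by 2.15, 2.31, 1.54 and 1.35 on the log2 scale (adjusted p = 0.0085, 2.42e-05, 1.26e-05 and 3.25e-05). The part of the remaining marker difference in these values was not tested. The call of Dsc2 was lost without the forelimb (1.70 on the log2 scale, adjusted p = 0.043). Cldn6 fell under the count filter, and so was not tested, without the forelimb, the hindlimb or penis library 1 or 3 and with the tighter gate and both gates on distinct markers, and 3 members were called without the forelimb. With gates on distinct markers alone, the count of 5 fell to 1, and with a stricter form of those gates to 0 of 8 tested. Shares of all genes called with those gates are not given here. Among the partners, Ppl at 1.04 ± 0.24 and Lama3, a laminin chain of the basement membrane, at 1.02 ± 0.18 were higher in penis basal cells, and Ctnnb1 was lower, by -1.03 ± 0.13. In counts, 1 of 13 tight junction partners, 1 of 5 desmosome and cornified envelope partners and 2 of 8 hemidesmosome genes were higher, 2 of 12 adherens junction genes were lower, and none of 7 barrier transcription factors passed.

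In suprabasal cells 2 claudins and 4 desmosome genes passed the test. Of 19 members tested, 3 were higher in the penis and 3 lower, where 4.96% of 9424 genes were higher and 5.08% lower. Over the members the median log2 difference was -0.08, over all genes 0.02. Cldn7 had 114, 76.7 and 114 CPM in the penis and 5.05 and 3.36 in the limbs, 4.59 ± 0.38 on the log2 scale (adjusted p = 1.74e-05). Cldn1, the claudin whose loss breaks the skin's water barrier, went the other way, with 6.77, 5.41 and 11.8 CPM against 205 and 102, or -4.30 ± 0.39 (adjusted p = 3.47e-05). Neither gene's groups came near each other. The low values rest on 3 and 3 limb UMIs for Cldn7 and on 6, 5 and 7 penis UMIs for Cldn1. Cldn7 passed the count filter for testing through the penis libraries, and Cldn1 through the limb libraries.

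Dsc1, the desmocollin of cornifying layers, had 1, 0 and 0 UMIs in the penis libraries and 16 and 54 in the limbs, a ratio of 113 with a counting interval from 19.7 to 4539. It passed the count filter for testing through the limb libraries. Its call was lost without the hindlimb (adjusted p = 0.011). Pkp3, a plakophilin of all living layers, had 82.3, 68.1 and 82.3 CPM in the penis and 231 and 193 in the limbs, -1.45 ± 0.18 (adjusted p = 0.00023). Dsg2, a desmoglein of simple and basal epithelia, had 58.6, 71.3 and 48.7 CPM against 26.9 and 22.4, or 1.31 ± 0.28 (adjusted p = 0.0068), and Pkp4 had 132, 158 and 143 against 72.4 and 61.6, or 1.12 ± 0.19 (adjusted p = 0.002). Dsg2 lost its call without penis library 1 or 2, the forelimb or the hindlimb (adjusted p from 0.013 to 0.06), and Pkp4 without penis library 2 (adjusted p = 0.01) or the hindlimb (adjusted p = 0.022). Cldn3 had 93.6, 84.3 and 101 CPM in the penis and 227 and 137 in the limbs, with no overlap, and missed the threshold at -0.96 ± 0.22 (adjusted p = 0.011). Dsc3 had 238, 199 and 169.6 CPM against 141 and 190.3, which overlap. Cldn4, Ocln, Perp, Dsp and Cldn23 did not pass, with differences of -0.08 ± 0.28, 0.26 ± 0.26, -0.22 ± 0.14, -0.05 ± 0.16 and -0.34 ± 0.25.

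**Figure D3:**
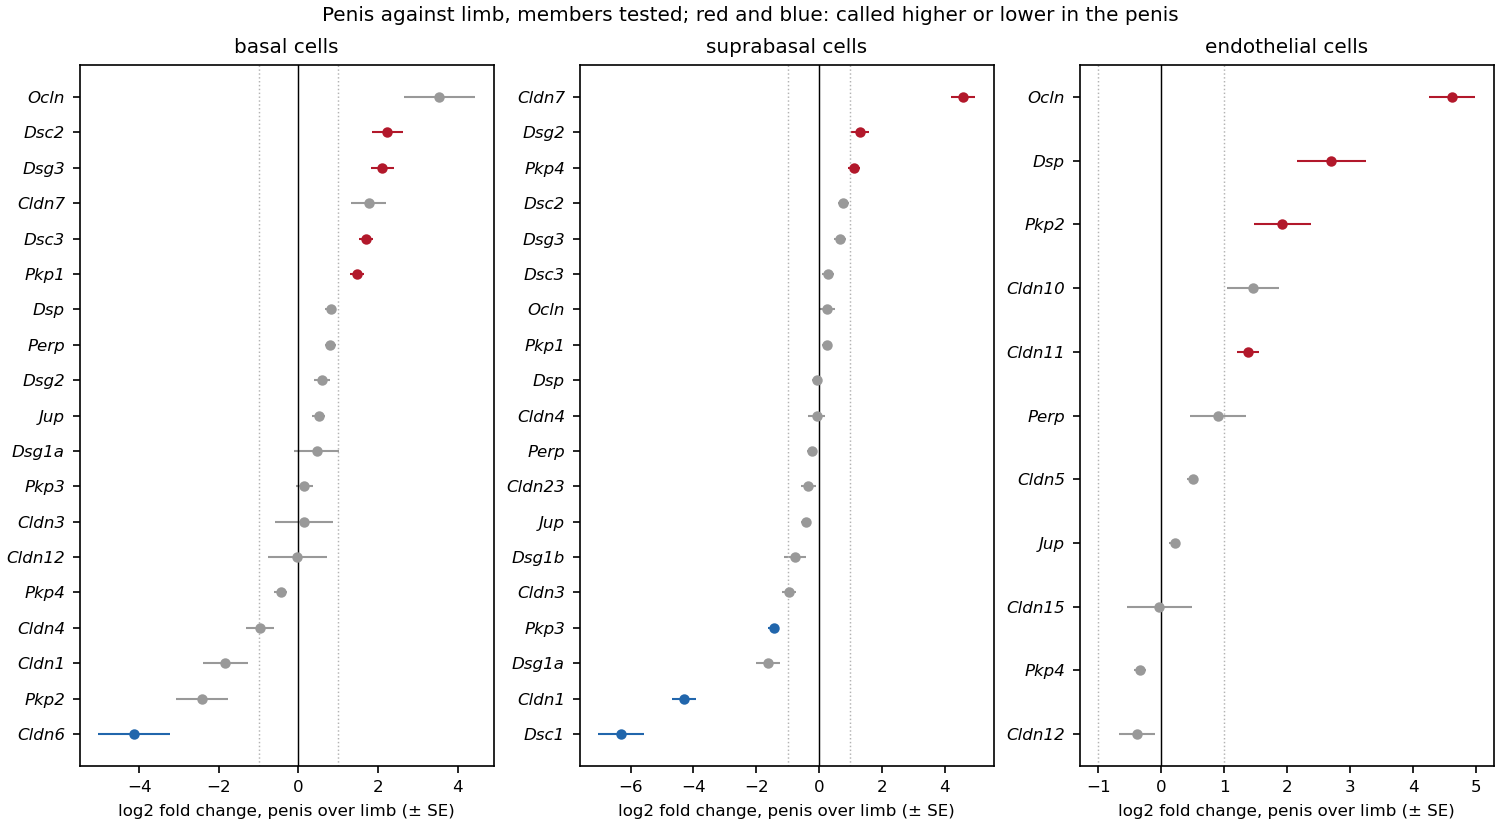
Log2 fold change of penis over limb with its standard error for the members tested in basal (19), suprabasal (19) and endothelial cells (11), red where higher and blue where lower in the penis by the rule of the text. The axes differ between panels, and Cldn7 at 4.59 and Dsc1 at -6.30 mark the extremes in suprabasal cells.

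In the same cells 3 of 6 desmosome and cornified envelope partners were lower in the penis, Ppl at -2.08 ± 0.21 and Pof1b at -1.25 ± 0.19 among them. Of the other lists, Lama3 was 1 of 8 hemidesmosome genes higher and Grhl1 1 of 7 barrier transcription factors lower, and 1 of 12 tight junction partners and 1 of 12 adherens junction genes were higher. Some markers of layers and of other epithelia moved with these values. The suprabasal markers summed to 5483 to 6906 CPM in penis and to 12554 and 17624 CPM in limb suprabasal cells. The periderm and simple epithelium list (Krt6a, Krt8, Krt17, Krt18, Krt20) summed to 970 to 1350 CPM in penis and to 4259 and 1915 CPM in limb suprabasal cells. The urethral and mucosal list summed to 8502, 9236 and 8723 CPM in the penis and to 9949 and 4623 in the limbs, which overlap. Psca, a marker on that list, had 6374 to 7802 CPM in the penis and 2336 and 1291 in the limbs. The rest of the list went the other way, with both limb sums above every penis sum. Their part in these results was not tested. The suprabasal cells were also read apart by their leading keratins.

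Cells led by Krt1, Krt10 and Lor, the keratins and envelope protein of skin, numbered 54, 63 and 33 in the penis and 63 and 105 in the limbs. Their urethral and mucosal markers summed to 75.8 to 128 CPM in the penis and to 42.1 and 873 in the limbs. Cells led by Krt4 and Krt13, keratins of moist lining and of periderm, numbered 15, 18 and 15 against 35 and 44, and the same markers summed there to 34539 to 41455 CPM in the penis and to 25421 and 19924 CPM in the limbs. Layer markers differed between organs within both sets. In the cells led by Krt1, Krt10 and Lor the basal markers summed to 9438, 8782 and 10317 CPM in the penis and to 2618 and 2574 in the limbs, and the suprabasal markers to 7764, 5829 and 5503 against 10959 and 19466. In the Krt4 and Krt13 cells the basal markers summed to 4492, 6552 and 10106 CPM against 18398 and 18444, and the suprabasal markers to 5069, 5692 and 7183 against 15236 and 11336. The periderm and simple epithelium list summed there to 2211, 2313 and 2170 CPM against 9991 and 6445. In the cells led by Krt1, Krt10 and Lor that list summed to 594, 732 and 1132 CPM against 575 and 785. The part of these marker differences in the values below was not tested. The split was made after the data were seen. The Krt4 and Krt13 sets rest on 148815 to 213061 UMIs per penis library and on 231814 and 176422 in forelimb and hindlimb. Median depths in these sets were 10406 to 13615 UMIs per penis cell and 2355 and 2685.5 per limb cell.

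Claudins were concentrated in the cells led by Krt4 and Krt13. Summed over the 23 claudins, those cells held 1985, 1359 and 1619 CPM in the penis and 1656 and 1649 in the limbs, and the cells led by Krt1, Krt10 and Lor held 46.4, 56.4 and 49.9 against 137 and 176. Cldn3 alone had 389.6, 377 and 396 CPM in the Krt4 and Krt13 cells of the penis and 582 and 629 in those of the limbs. Cldn4 had 695, 313 and 464 against 267 and 408, Cldn23 had 404, 352 and 289 against 349 and 340.1, and both overlapped between organs. The desmosomal cadherins showed the opposite split in the penis, with 719 to 817 CPM in the skin-keratin cells and 87.4 to 147 in the Krt4 and Krt13 cells, against 542 and 614 and then 440.01 and 533 in the limbs.

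Between organs, the Krt4 and Krt13 cells differed in 9 of 15 members tested, 2 higher and 7 lower in the penis, where 8.86% of 3791 genes were higher and 7.20% lower. Cldn7 had 460, 293 and 437 CPM in the penis and 12.9 and 11.3 in the limbs, which is 3 and 2 UMIs, with a log2 difference of 4.91 ± 0.41. Cldn1 had 4.69, 0 and 13.4 CPM against 436 and 227, -5.84 ± 0.61. Perp had 113, 249 and 195 CPM against 1096 and 1049, -2.54 ± 0.34. Dsc2 had 37.5, 39.1 and 47.0 against 276 and 379.8, -2.99 ± 0.29, and Dsg3, Pkp1, Pkp3 and Dsp were lower too, by -3.92, -2.70, -2.27 and -1.26. Pkp4 was higher, at 1.62 ± 0.36. In the penis Cldn1 had 1, 0 and 2 UMIs, Dsg3 0, 4 and 1, Pkp1 4, 7 and 6, and Dsc2 8, 8 and 7. These members passed the count filter for testing through the limb libraries, and Cldn7 through the penis libraries.

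Cells led by Krt1, Krt10 and Lor differed in 7 of 16 members tested, 3 higher and 4 lower, where 4.00% of 8160 genes were higher and 4.47% lower. Here Dsc2 was higher in the penis, with 204, 230.2 and 273 CPM against 11.2 and 28.4, or 3.45 ± 0.29, as was Dsg3, with 155, 125 and 128 against 16.8 and 44.0, or 2.07 ± 0.31. The direction of Dsc2 was opposite in these cells and in the Krt4 and Krt13 cells, and the difference between the sets was not tested. Cldn1, Cldn4, Dsc1 and Dsg1a were lower in the penis, by -2.83 ± 0.34, -2.28 ± 0.33, -6.26 ± 0.66 and -1.57 ± 0.36, and Pkp4 was higher by 1.08 ± 0.22. In the penis Cldn1 had 5, 5 and 5 UMIs, Cldn4 7, 8 and 4, and Dsc1 1, 0 and 0. These members passed the count filter for testing through the limb libraries. Dsc2, with 4 and 20 limb UMIs, passed it through the penis libraries. Perp did not pass in these cells, at 0.23 ± 0.14, with 1324, 1027 and 1249 CPM in the penis and 985 and 1148 in the limbs.

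**Figure D4:**
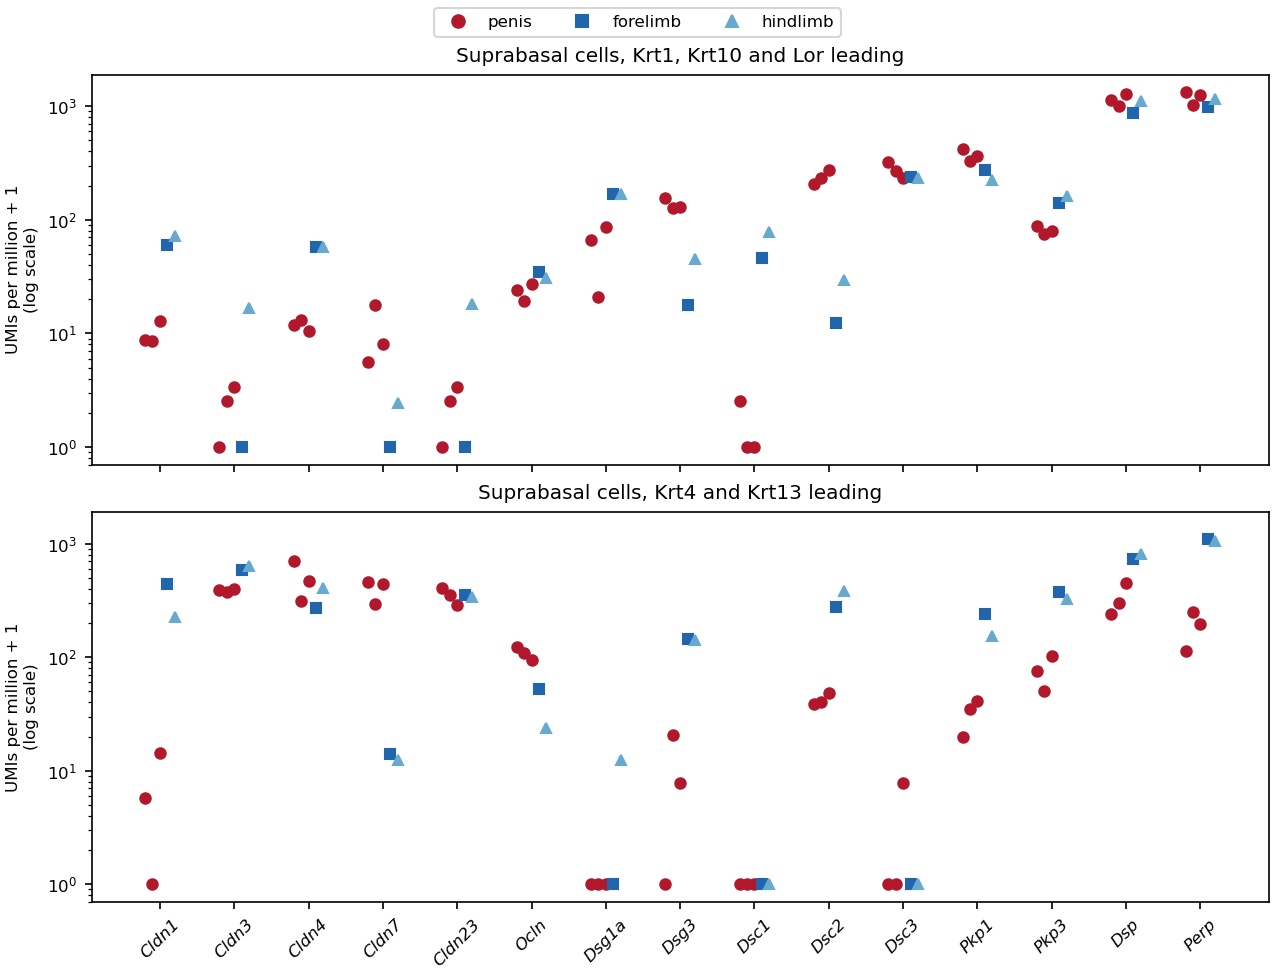
CPM plus 1 (log scale) of 15 members in each library, in suprabasal cells led by Krt1, Krt10 and Lor (top) and by Krt4 and Krt13 (bottom). Cldn3, Cldn4 and Cldn23 are high in the bottom panel in both organs, while Dsc2 and Dsg3 lie lower in the bottom than in the top panel in the 3 penis libraries and higher in both limb libraries.

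The step from basal to suprabasal cells was itself compared between organs, in 1 model over both layers. Of 19 members tested, the step was higher in the penis for 1 and lower for 4, counting a fall as a negative step, where 0.897% of 10372 genes were higher and 1.61% lower. The median log2 difference of steps was -1.25 over the members and -0.02 over all genes. Pkp3 went from 74.7, 64.5 and 67.5 to 82.3, 68.1 and 82.3 CPM in the penis, and from 85.3 and 48.5 to 231 and 193 in the limbs, a difference of steps of -1.65 ± 0.25 (adjusted p = 0.00098). Dsc3, Pkp1 and Perp also had smaller steps in the penis, by -1.40 ± 0.27, -1.25 ± 0.21 and -1.04 ± 0.16 (adjusted p = 0.0057, 0.0022 and 0.001). Pkp4 went from 147, 159 and 157 to 132, 158 and 143 CPM in the penis and from 189 and 274 to 72.4 and 61.6 in the limbs, so that it fell further in the limbs, with a difference of steps of 1.57 ± 0.24 (adjusted p = 0.0012).

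All 5 calls on the step were lost without the hindlimb (adjusted p from 0.018 to 0.14) and with either gate on distinct markers, Dsc3 and Pkp1 also without the forelimb (adjusted p = 0.025 and 0.033), and Dsc3 without penis library 3 (adjusted p = 0.015). The penis libraries held more cells near the line between the layers, by the counts given above, and the epithelial marker sums given for the layers rose in both limbs and in 1 of the 3 penis libraries. Perp had 1324, 1027 and 1249 CPM in penis cells led by Krt1, Krt10 and Lor and 113, 249 and 195 in those led by Krt4 and Krt13. In the limbs these were 985 and 1148, and 1096 and 1049. Pkp1 had 421, 329 and 366 and then 18.8, 34.2 and 40.3 CPM in the 2 penis sets. Pkp3 had 86.6, 74.7 and 78.3 and then 75.1, 48.9 and 101 CPM. The part of any of these in the result was not tested.

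Endothelial cells carried few members, led by Cldn5, which seals vessel walls. Cldn5 had 739, 656 and 691 CPM in the penis and 477 and 494 in the limbs. Jup, which also binds the endothelial cadherin, had 85.4, 92.3 and 85.4 CPM against 72.0 and 77.3, and Pkp4 had 108, 104 and 136 against 146 and 141. Cldn12 had 4.04, 4.70 and 5.16 CPM against 4.93 and 6.91, and Cldn10 had 3.85, 3.43 and 4.46 against 1.64 and 1.12. Against other cells of the same library, 3 of 24 members tested were higher in endothelial cells and 5 lower, where 8.33% of 18088 genes were higher and 14.4% lower. The median was -0.77 over the members and -0.06 over all genes. The 8 calls became 4 with gates on distinct markers alone and 16 with all deposited barcodes, settings whose shares over all genes are not given here. Cldn5 stood out at 8.49 ± 0.14 on the log2 scale (adjusted p = 3.01e-07), beside Jup at 2.44 ± 0.08 and Cldn11 at 1.90 ± 0.28. Cldn3, Cldn10, Cldn1, Pkp1 and Dsc3 were lower, by -3.34, -2.99, -2.16, -1.86 and -1.85, and of these Cldn1, Pkp1 and Dsc3 lost their call without penis library 1 or 2 (adjusted p from 0.0101 to 0.036), Cldn1 and Pkp1 without the forelimb (adjusted p = 0.012 and 0.014), Cldn1 without the hindlimb (adjusted p = 0.017) and Pkp1 without penis library 3 (adjusted p = 0.024).

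Thinned to 2000 UMIs per cell, 60.8% ± 1.7 (SD, n = 3) of penis and 54.5% ± 0.02 (SD, n = 2) of limb endothelial cells had a Cldn5 UMI, and unthinned 84.1% and 79.9%. Leukocytes, which should lack the gene, had 0.40% and 0.41% when thinned. Median depths were 9146 to 9503 UMIs in penis and 6058 and 8055 in limb endothelial cells, and 6649 to 7904 and 6990.0 and 8112 in leukocytes. Thinning left out 78 of 1443 penis and 58 of 797 limb endothelial cells. For Dsp in basal cells the thinned shares were 49.1% ± 5.8 in the penis and 40.6% ± 4.0 in the limbs, with 1.26% and 0.38% in leukocytes, and unthinned 64.0% and 61.2%. For Cldn4 in suprabasal cells they were 14.2% ± 4.4 and 14.9% ± 0.85, and unthinned 23.6% and 26.3%. Unthinned, 0 of 767 penis leukocytes had a Cldn4 UMI, which allows a share of up to 0.391%, and 1 of 2943 limb leukocytes did, 0.034% with an exact Clopper-Pearson 95% interval from 0.00086% to 0.189%. Thinning left out 167 of 810 penis and 39 of 202 limb basal cells, and 46 of 227 and 78 of 254 suprabasal cells. Median depths were 5684.5 to 8827 UMIs in penis and 4248 and 4980 in limb basal cells, and 7629 to 11083 against 2979 and 3642 in suprabasal cells.

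Between organs, 4 of 11 members tested in endothelial cells were higher in the penis and none lower, where 7.24% of 13830 genes were higher and 7.35% lower. The median log2 difference was 0.90 over the members and 0.00 over all genes. Ocln had 14.8, 12.8 and 17.4 CPM in the penis and 0.47 and 0.67 in the limbs, 4.62 ± 0.37 on the log2 scale (adjusted p = 3.19e-07). Cldn11, a claudin best known from myelin and testis, had 21.3, 23.5 and 27.2 CPM against 8.92 and 9.14, or 1.38 ± 0.17 (adjusted p = 2.56e-05). Dsp and Pkp2, both known from the junctions of heart muscle, were higher by 2.70 ± 0.55 and 1.92 ± 0.45 at 3.27 to 4.69 and 3.08 to 5.60 CPM in the penis against at most 0.89 and 1.17 CPM in the limbs. Ocln, Dsp and Pkp2 passed the count filter for testing through the penis libraries. Epithelial markers summed to 43.8 to 49.5 CPM in penis and to 20.2 and 17.6 CPM in limb endothelial cells, and Dsp in leukocytes was 4.26 to 8.20 CPM in the penis and 2.06 and 1.44 in the limbs. The part of such stray epithelial RNA in the Dsp value was not tested. Leukocytes held Ocln at 0.43 to 1.67 CPM in the penis and at 0.74 and 2.08 CPM in the limbs. The part of stray RNA in the Ocln value was not tested either. Dsp and Pkp2 lost their calls without the forelimb (adjusted p = 0.021 and 0.023), and Pkp2 without the hindlimb, penis library 2 or penis library 3 (adjusted p = 0.032, 0.011 and 0.0101).

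Cldn5 itself differed by 0.50 ± 0.08 (adjusted p = 0.00026), past the p limit and short of the fold limit, with every penis library above both limb libraries. Cells with lymphatic markers were 41 to 47 per penis library and 64 and 52 in forelimb and hindlimb. These lymphatic cells held more Cldn5 than blood endothelial cells in all 5 libraries, 951, 890 and 1255 CPM against 714, 624 and 607 in the penis and 811 and 699.9 against 379.6 and 419 in the limbs. Cldn11 ran the same way, 44.97, 57.5 and 92.1 CPM in lymphatic against 18.5, 18.9 and 17.5 in blood endothelial cells of the penis. Without lymphatic cells, Ocln, Cldn11, Dsp and Pkp2 kept their calls, at 4.18, 1.72, 3.65 and 2.19, and Cldn5 differed by 0.68 ± 0.10. Among the partners, 4 of 7 hemidesmosome genes were higher in penis endothelium, with Plec at 1.21 ± 0.09 and Cd151 at 1.20 ± 0.09, as were 2 of 12 tight junction partners and 1 of 2 barrier transcription factors, and none of 10 adherens junction genes passed. Against other cells, endothelial cells were higher in 7 of 15 tight junction partners, with Esam, an endothelial adhesion molecule, at 6.63 ± 0.10, and in 6 of 8 hemidesmosome genes.

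Other cells were the gate with the highest mean level for 11 claudins, most of them near 0. Of 28 members tested, 9 were higher in the penis and 3 lower, where 13.1% of 21281 genes were higher and 11.9% lower. Medians on the log2 scale were -0.28 over the members and 0.01 over all genes. Pkp4 was the strongest member in other cells, with 62.5, 62.3 and 71.2 CPM in the penis and 94.7 and 98.6 in the limbs, and Jup had 18.8, 18.5 and 18.8 against 12.7 and 12.9, and neither passed the fold limit. Cldn12 had 4.50, 4.38 and 4.75 CPM against 6.10 and 6.18, and Cldn11 had 4.25, 4.99 and 5.11 against 4.70 and 4.62. Cldn19 and Cldn10, claudins that select ions in kidney tubules, differed most. Cldn10 had 42.3, 39.97 and 39.7 CPM in the penis and 5.71 and 5.52 in the limbs, 2.81 ± 0.07 on the log2 scale (adjusted p = 1.97e-08). In mesenchyme cells alone it had 47.4, 44.6 and 44.6 against 8.03 and 7.40, 2.54 ± 0.07.

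Cldn19, a claudin also found in myelinating Schwann cells, had 7.53, 10.5 and 9.99 CPM in other cells of the penis and 0.98 and 1.04 in the limbs, 3.15 ± 0.16 (adjusted p = 7.76e-07). The glial gate held it at the highest level, with 199, 275 and 263 CPM in the penis and, for forelimb and hindlimb, 0 and 1.58 CPM. The gate's 7 glial markers themselves summed to 12975, 14903 and 13844 CPM in these penis cells and to 1814 and 1849 in the limb cells, so the cells of this gate differed between organs in their own markers, and the part of that in the Cldn19 value was not tested. These are 1348 UMIs in the penis and 2 in the limbs, a ratio of 325 with a counting interval from 89.9 to 2690, and the 0 of 169 forelimb glial cells allows a share of up to 1.78%. Glial cells numbered 172, 188 and 165 in the penis and 169 and 132 in the limbs, and the test within them gave 8.26 ± 0.38. Cldn19 passed the count filter for that test through the penis libraries. In mesenchyme cells Cldn19 pointed the other way, -0.95 ± 0.19, at 0.56 to 0.70 CPM in the penis and 1.20 CPM in both limbs. Pkp4 was lower in penis glia, with 25.7, 16.0 and 15.4 CPM against 103 and 104, -2.38 ± 0.19, the other member called there of 5 tested, where 8.94% of 11315 genes were higher and 7.19% lower.

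**Figure D5:**
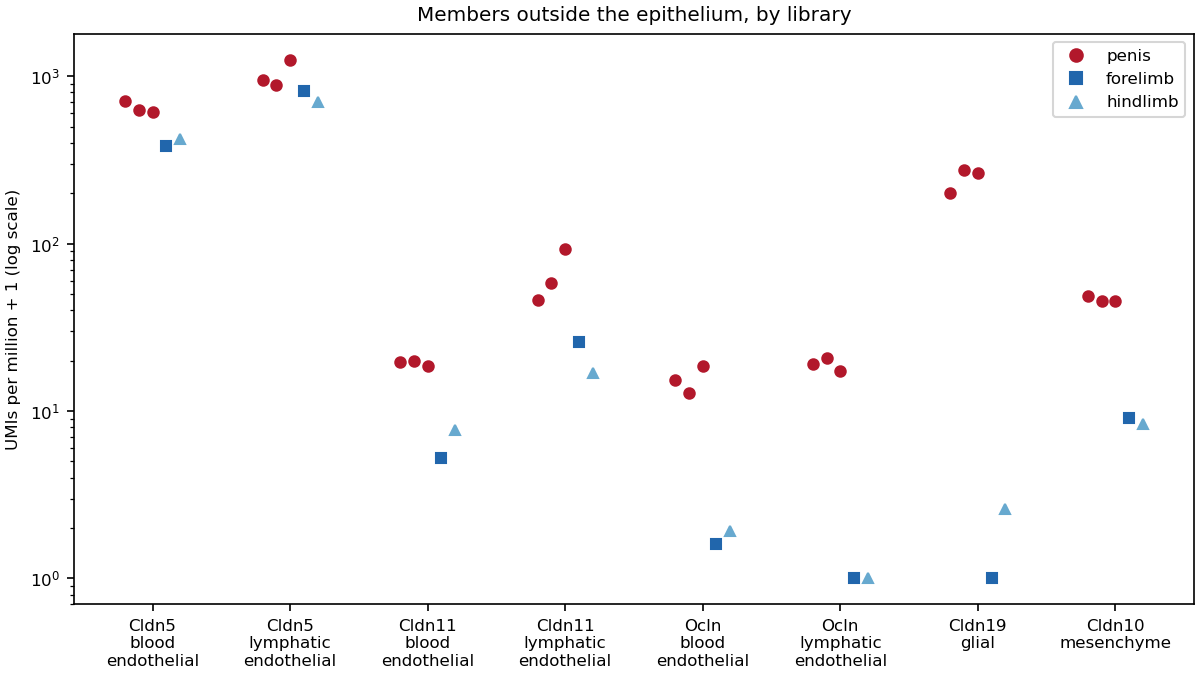
CPM plus 1 (log scale) by library for members in cells outside the epithelium: Cldn5, Cldn11 and Ocln in blood and lymphatic endothelial cells, Cldn19 in glial and Cldn10 in mesenchyme cells. The 3 penis libraries lie above both limb libraries for each gene and cell set shown.

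Cldn3 had 6.91, 5.90 and 6.40 CPM against 3.57 and 2.14, and Dsp had 5.40, 5.30 and 6.40 against 2.40 and 2.54. The 7 members besides Cldn19 and Cldn10 that were higher in penis other cells were Dsg3, Dsc3, Dsc2, Dsg2, Dsp, Cldn3 and Pkp1, by 1.04 to 2.59 on the log2 scale and at no more than 6.91 CPM in any library. The 8 epithelial markers summed to 47.4, 54.5 and 54.6 CPM in the same cells of the penis and to 34.7 and 37.2 CPM in those of the limbs, and their part in these 7 results was not tested. Cldn3 missed the fold limit without the hindlimb (0.77 on the log2 scale), as did Pkp1 (0.93) and Pkp1 without penis library 2 (0.92). Pkp2, Cldn14 and Cldn20 were lower, by -1.64 ± 0.21, -1.25 ± 0.21 and -1.12 ± 0.29, at no more than 1.17 CPM, and Cldn20 lost its call without any 1 library except penis library 3 (adjusted p from 0.019 to 0.038). Cldn1 was lower in penis mesenchyme, with 2.58, 2.26 and 2.75 CPM against 6.52 and 5.84, -1.31 ± 0.12 (adjusted p = 9.59e-06). Of the partners, Cgnl1, a tight junction scaffold, had a penis mean of 165 CPM and a limb mean of 35.9, 2.15 ± 0.05, and Ppl and Spink5 were higher by 1.93 ± 0.06 and 3.66 ± 0.16. Fewer cells of a kind and less RNA per cell cannot be told apart in values summed over this mixed gate.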

How the data were processed

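The authors made 10x Genomics libraries and counted UMIs with Cell Ranger 7.0.0 on mm10, per the methods and the submitters' processing notes. The deposited values are raw counts per gene and barcode, with no pooling. Whether introns were counted is not given in the sources used here.

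Cells were kept by limits taken from the study's methods. Those methods word the first limit as reads per cell, and it was applied here to genes per cell: 500 to 6000 genes and at most 5% mitochondrial counts (penis), 100 to 9000 or 9500 genes and 10% (forelimb, hindlimb), and 0.8 log10 genes per log10 UMIs. An epithelial cell needed 3 distinct markers and 20 epithelial or layer marker UMIs per 10000, an endothelial cell 3 and 10. Suprabasal cells had at least 0.2 of their layer marker UMIs from suprabasal genes. These gates replaced gates on distinct markers alone, which took in deep mesenchymal cells, after member levels in the earlier gates had been seen and before any test. The earlier gates remain as an alternative. No doublet caller was run.

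Counts summed per library and gate were tested with edgeR 4.0.16 (TMM, filterByExpr, quasi-likelihood, Benjamini-Hochberg over all genes tested), first tested on simulated data. Comparisons within libraries carried the library as a block. The SE is the log2 fold change over the root of its F value. With 3 against 2 libraries an exact permutation p cannot go below 0.1. CPM divides by all UMIs of the gate. Intervals and floors cover counting error only. Alternatives were DESeq2 1.42.0, other scaling, filters and gates, and each library left out.

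Named were the 8 members highest in each gate, every member called, and partners by level. The members and lists were chosen with earlier results of these data known, and the keratin, lymphatic and glial subsets after seeing these data.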

Additional observations from a re-analysis of the deposited data

Results flagged for a closer look

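The step from basal to suprabasal cells differed between penis and limbs in 5 genes, by the interaction of layer and organ in edgeR's quasi-likelihood test. The difference of steps, penis minus limb on the log2 scale, was -1.647 for Pkp3, -1.405 for Dsc3, -1.247 for Pkp1, -1.035 for Perp and 1.567 for Pkp4. The step in Perp was positive in all 5 libraries, from 1.04 to 1.10 in the penis and at 1.87 and 2.07 in the limbs. All 5 calls were lost without the hindlimb library.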

How the results depend on the processing

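No paired analysis was possible because, between penis and limbs, the forelimb and hindlimb groups have 1 library each and share only the number 1 with the penis. Within libraries, leaving out the replicate block gave 10 members called instead of 13 between layers, and 18 for basal cells against other cells, 8 for endothelial cells against other cells and 5 for the difference of steps, the counts also found with it. Between layers the calls of Cldn7, Dsg3 and Pkp1 were those lost (adjusted p = 0.148, 0.0951 and 0.0215 by edgeR).

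Over 120 gene results, 1321 alternatives kept direction and side of the threshold, 107 lost a call, 56 gained one and 46 turned direction. Of 105 alternatives on counts of members called, 88 stayed within 1.5 times the count. Leaving out each library in turn gave 3 to 7 members called in basal, 4 to 6 in suprabasal, 2 to 4 in endothelial and 9 to 12 in other cells of penis against limbs, 10 to 13 between layers, 17 to 19 and 5 to 8 for basal and endothelial against other cells, and 0 to 5 for the difference of steps. The lowest counts moved by over 1.5 times without the forelimb (3 in basal, 2 in endothelial cells, 3 for the steps), the hindlimb (0 for the steps) or penis library 1 (5 for endothelial against other cells).

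Gates on distinct markers alone gave 1 member called in basal cells, 7 in endothelial cells, 4 for endothelial against other cells and 0 for the steps. Their stricter form gave 0 in basal cells, 9 for basal against other cells and 0 for the steps. The tighter gate gave 3 for the steps, no low-count filter 9, and all deposited barcodes 8 for the steps and 16 for endothelial against other cells. Glial cells alone gave 2 of 5 tested. The share of all genes called with these gates, filters and barcodes, or with a library left out, is not given here. A change among the members therefore cannot be set beside one over all genes. The cause was not tested. The tighter gate, the earlier gates (those on distinct markers alone) and the keratin and glial subsets were run after seeing the data. The depth of the smallest sets, 15 to 18 cells in the Krt4 and Krt13 set of the penis, limits what can be seen of low genes.

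Directions that turned were these, on the log2 scale. In penis against limb basal cells, the stricter gate gave -0.21 for Dsp, -0.076 for Perp and -0.74 for Pkp3, and Pkp3 was -0.41 with the earlier and -0.0097 with the tighter gate, and -0.18 to 0.65 with a library left out. In suprabasal cells Dsp was 0.12 with the tighter gate, 0.26 in Krt1, Krt10 and Lor cells and -0.22 to 0.12 with a library left out, Perp was 0.23 in Krt1, Krt10 and Lor cells, and Dsc2, Dsg3 and Pkp1 were -2.99, -3.92 and -2.70 in Krt4 and Krt13 cells. Cldn4 was 0.69 with the tighter gate, 0.52 in Krt4 and Krt13 cells and -0.40 to 0.19 with a library left out, Cldn23 was 0.30, 0.0041 and -0.72 to 0.063 in the same order, and Ocln was -0.48 with the stricter gate, -0.10 with the earlier gate and -0.43 in Krt1, Krt10 and Lor cells. In other cells Cldn11 was 0.039 with all barcodes, 0.016 with the earlier gate, 0.48 in glia and -0.053 to 0.068 with a library left out, Cldn12 was 0.27 in glia, and Cldn19 was -0.95 in mesenchyme. Between layers, Dsg2 was 0.62 with the stricter and 0.75 with the earlier gate, and Pkp4 0.20 and 0.23. For basal against other cells, Cldn12 was -0.051 with the earlier gate and -0.26 to 0.28 with a library left out, the stricter gate gave 0.41 for Cldn19, -2.57 for Cldn3 and -0.051 for Cldn7, and the tighter gate -1.47 for Cldn3. For the steps, Cldn3 was 0.47 with all barcodes, 0.52 with the earlier and 2.10 with the tighter gate, and -1.59 to 0.017 with a library left out, and the stricter gate gave -0.035 for Dsg2 and 0.058 for Dsp.

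Shares of cells with a UMI move with the depth cells are thinned to. Thinned to 1000 UMIs, to 4000 and not thinned, the share was 41.7%, 78.1% and 84.15% for Cldn5 in penis endothelial cells and 35.7%, 71.7% and 79.9% in limb ones. For Dsp in basal cells it was 28.9%, 74.6% and 64.0% in the penis and 24.9%, 61.0% and 61.2% in the limbs. For Cldn4 in suprabasal cells it was 8.10%, 21.6% and 23.6% in the penis and 8.65%, 29.8% and 26.3% in the limbs. Thinning leaves out cells below the depth, so these shares are not over the same cells: at 4000 UMIs it left out 332 of 810 penis and 87 of 202 limb basal cells, 88 of 227 and 142 of 254 suprabasal cells, and 165 of 1443 and 198 of 797 endothelial cells.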

Other observations

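Cldn13, a claudin known from blood-forming tissue, had 40 UMIs in all cells kept, and its values were looked up after the data were seen. In cells that held at least 3 erythroid markers it had 1, 0 and 0 UMIs among 11, 15 and 10 penis cells, and 11 and 10 UMIs among 55 forelimb and 57 hindlimb cells. These are 5.14, 0 and 0 CPM in the penis and 25.0 and 17.95 CPM in the limbs, and so few penis cells allow no comparison. The erythroid markers summed to 1118 to 1324 CPM in these cells and the mesenchyme markers to 1408 to 2239 CPM, against 328 to 452 CPM of the latter in leukocytes, so these cells are not named as a type.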
